A study of Mus musculus with 36 samples.

Results

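Axon guidance was examined through 60 genes that encode its 4 classical ligand and receptor systems, out of 20807 protein-coding genes on the autosomes. They were named by gene family, a rule that uses no measured value but was set with earlier results of these data known: 31 encode ligands (20 semaphorins, 7 ephrins, 3 Slit proteins and netrin-1) and 29 encode receptors (7 plexins, 14 Eph receptors, 3 Robo receptors, and Dcc with the Unc5 family for netrin-1). Growing axons and migrating neurons read such cues at their membranes, and each system can attract or repel: plexins bind semaphorins, Eph kinases bind ephrins on neighbouring cells, Robo binds secreted Slit, and Dcc and Unc5 bind netrin-1. In the embryonic brain these proteins set where commissures cross the midline, and how cells of adjoining territories stay apart. Many of the genes start in CpG islands, which carry little 5-methylcytosine (5mC) in most tissues, while the transcribed remainder of a gene is usually methylated.

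TET1 is an enzyme that oxidises 5mC. The question of the study was how its loss and the amount of folic acid (FA) fed to the mother act, alone and together, on DNA methylation in the brain. Single brains from E11.5 mouse embryos, cut from forebrain to hindbrain, were profiled by oxidative bisulfite RRBS, a sequencing method that samples DNA near MspI and TaqI sites and reads true 5mC without 5-hydroxymethylcytosine. All embryos were of the congenic 129S6.Cg strain and carried 0, 1 or 2 copies of Tet1 tm1Koh, a cassette inserted at the start codon of full-length Tet1. Homozygotes (KO), heterozygotes (HET) and wild-type littermates (WT) came from crosses of HET parents. The dams had been adapted to a diet with 3 ppm FA as the control, to an excess of 30 ppm or to a depleted diet of 0.1 ppm, and all 3 diets held the antibiotic succinyl sulfathiazole. Used here were 3 WT, 5 HET and 6 KO embryos on 30 ppm, 4 WT, 3 HET and 5 KO embryos on 3 ppm, and 2 WT, 2 HET and 5 KO embryos on 0.1 ppm, of both sexes and with normal and affected phenotypes, grouped by their library labels. The allele was made on a C57BL/6 background and moved to 129S6 by backcrossing, and the knockout is in every tissue. A whole brain is a mixture of cell types, so that a change in the share of cell types and a change within cells cannot be told apart. Neither gene expression nor a cell-type marker was measured in these libraries.

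35 libraries held 25.6 to 197 M CpG calls (M, 1e6) at a mean coverage of 12.1 to 61.5 reads per listed CpG, and 921363 autosomal CpGs were covered at least 5 times in all of them. 1 HET library of 0.1 ppm with 23.2 M calls was left out, as it was in the study. The targeted gene and the deposited KO regions served as a label check. The authors called these regions between KO and WT embryos on 3 ppm, so those embryos part there by construction. For them the regions are no independent check. Over 88209 CpGs in the authors' list of regions that gained methylation in KO embryos on 3 ppm, 15 libraries labelled KO lay between 50.4 and 54.1%, 11 labelled HET between 38.85 and 41.79%, and 7 labelled WT between 35.39 and 37.69%. 3 libraries went against their labels: the library labelled KO replicate 1 of 30 ppm stood at 38.9%, and those labelled WT replicate 2 of 30 ppm and WT replicate 2 of 0.1 ppm stood between 40.7 and 42.7%. At 85 CpGs inside Tet1 the library labelled KO lay at 31.4%, against 37.8 to 48.6% in the other KO libraries. It stood below the HET libraries, at 32.9 to 39.3%, and within the 28.4 to 36.1% of the other WT libraries. Those labelled WT that went against their labels lay at 37.4 to 40.7%. The study's own sample list gives the first of these embryos as HET and both others as WT, so on 30 ppm the groups used here hold an embryo among the KO that the study counted as HET. All 3 were kept under their labels, and the counts of called regions and the leading differences are also given without them. Since they were singled out by their 5mC, a low KO and a pair of high WT libraries, leaving them out by itself widens differences, adds calls and parts the groups, and those values are a description only.

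A promoter was the set of measured CpGs within 1 kb of the start of any coding transcript, and the gene body was all other measured CpGs of the gene. Both needed at least 3 CpGs covered in all 35 embryos. 58 promoters (all but Sema3a and Sema3g) and 59 gene bodies (all but Efna1) met this, and 1 kb windows along the genes and 2 kb to each side, here called tiles, gave a finer view with 439 tiles. Levels are the share of methylated reads, and a difference in levels is given in percentage points. A promoter or gene body was called changed at an adjusted p under 0.05 and at least 5 points in the quasi-binomial test, and a tile at 10 points. Differences over all diets come from a least-squares fit to the embryos' levels with diet as a covariate. They can deviate slightly from the difference of the plain means over 9 WT, 10 HET and 16 KO embryos. The p-values come from the quasi-binomial fit to the reads.

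The reference sequences that carried the results were read from the RefSeq assembly GRCm38.p6 (mm10), plus strand, with measured CpGs in capitals. The first 5 hold CpGs of member tiles that gained methylation in KO embryos, and they were chosen as the 4 genes with the largest tile difference together with Efnb3, in which all gene body CpGs lie in 1 tile. Sema4a is shown as the promoter with the largest difference, and Sema4b as a promoter that stayed unmethylated.
Sema5b, chr16:35660055-35660329, tile with an exon near the 3′ end of the gene: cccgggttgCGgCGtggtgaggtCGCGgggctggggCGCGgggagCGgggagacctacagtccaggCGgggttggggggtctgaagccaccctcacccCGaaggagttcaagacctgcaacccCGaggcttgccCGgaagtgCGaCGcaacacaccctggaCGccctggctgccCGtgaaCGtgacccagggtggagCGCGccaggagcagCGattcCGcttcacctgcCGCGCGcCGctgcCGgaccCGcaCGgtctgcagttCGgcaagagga
Epha8, chr4:136942896-136942970, intron: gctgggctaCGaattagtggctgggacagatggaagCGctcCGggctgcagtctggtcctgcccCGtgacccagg
Ntn1, chr11:68277750-68277826, tile with an exon: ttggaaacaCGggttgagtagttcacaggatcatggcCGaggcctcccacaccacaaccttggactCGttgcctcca
Slit1, chr19:41648877-41648986, tile with an exon: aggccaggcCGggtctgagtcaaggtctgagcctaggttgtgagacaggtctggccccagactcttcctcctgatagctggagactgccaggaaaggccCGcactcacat
Efnb3, chr11:69557175-69557462, tile with an exon: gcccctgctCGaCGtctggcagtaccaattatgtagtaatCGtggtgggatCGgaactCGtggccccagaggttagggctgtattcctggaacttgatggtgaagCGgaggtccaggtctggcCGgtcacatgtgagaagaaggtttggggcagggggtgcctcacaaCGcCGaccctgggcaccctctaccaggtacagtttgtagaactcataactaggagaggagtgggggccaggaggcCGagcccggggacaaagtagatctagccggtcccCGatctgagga
Sema4a, chr3:88460539-88460637, promoter: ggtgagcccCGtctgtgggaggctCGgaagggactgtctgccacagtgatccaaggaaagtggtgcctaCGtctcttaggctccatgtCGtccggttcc
Sema4b, chr7:80186741-80186834, promoter before the transcript start: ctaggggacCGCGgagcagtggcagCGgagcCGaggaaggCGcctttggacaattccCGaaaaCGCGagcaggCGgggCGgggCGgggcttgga
In the Sema5b stretch 28 of 29 CpGs were measured, and every one was higher in KO than in WT embryos. Single CpGs of it ranged from 4.88 to 39.2% in WT, from 5.25 to 44.9% in HET and from 38.1 to 84.0% in KO embryos. All 11 measured CpGs of the Efnb3 stretch and all 4 of the Epha8 stretch were higher in KO embryos as well. The Sema5b, Efnb3 and Epha8 stretches were taken from tiles called higher in KO embryos. That choice by itself favours this direction, so these counts are a description. In the CpG-rich Sema4b stretch, pooled levels were 0.884% in WT, 0.539% in HET and 0.702% in KO embryos, and 4 of its 11 CpGs were higher in KO than in WT embryos.

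In WT brains the promoters of the axon guidance genes were almost free of 5mC. 52 of the 58 measured promoters lay below 5% and 39 below 1%, with a median of 0.756%, beside 80.1% of all promoters in the genome below 5%. The exceptions above 20% were Sema4a, a transmembrane semaphorin, with 64.7% and Sema3b, a secreted semaphorin, with 36.9% over 7 CpGs near any of its annotated starts. Gene bodies ranged from 5.39% in Efna3 to 94.2% in Plxnb1 with a median of 74.4%, below the median of 83.2% over all gene bodies. The SD over the 9 WT embryos had a median of 0.360 points over the promoters, with 8.23 points at most, and of 2.37 points over the gene bodies, with 8.16 points at most.

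KO embryos carried more 5mC than WT embryos in the gene bodies, while few promoters were called at the minimum of 5 points. 18 of the 59 gene bodies were called higher in KO than in WT embryos over all diets and none lower, where 25.1% of all gene bodies were called. Only 3 of 58 promoters were called higher and none lower, where 9.05% of all promoters were called. Of the tiles, 294 could be tested in 56 genes, and 58 were called higher in 29 genes and none lower, against 14.3% of all tiles. The median difference over the members was 3.65 points in gene bodies, 0.17 points in promoters and 4.08 points in tiles, and over all regions tested it was 2.79 points, 0.24 points and 2.92 points, respectively. All 59 gene bodies had a positive difference (94.1% of all gene bodies did), from 0.08 points in Dcc to 25.4 points in Sema5b. Without the 3 libraries, 26 gene bodies (32.2% of all gene bodies were then called), 3 promoters (10.2%) and 71 tiles (17.8%) were called. These included all 18 gene bodies and all 3 promoters called with every library in. The difference became 29.5 points in Sema5b, 24.4 points in Efnb3, 18.4 points in Epha5, 15.5 points in Epha8, 14.9 points in Sema6b, 12.5 points in Efna2, 11.4 points in Unc5b and 9.52 points in Slit1.

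**Figure D1:**
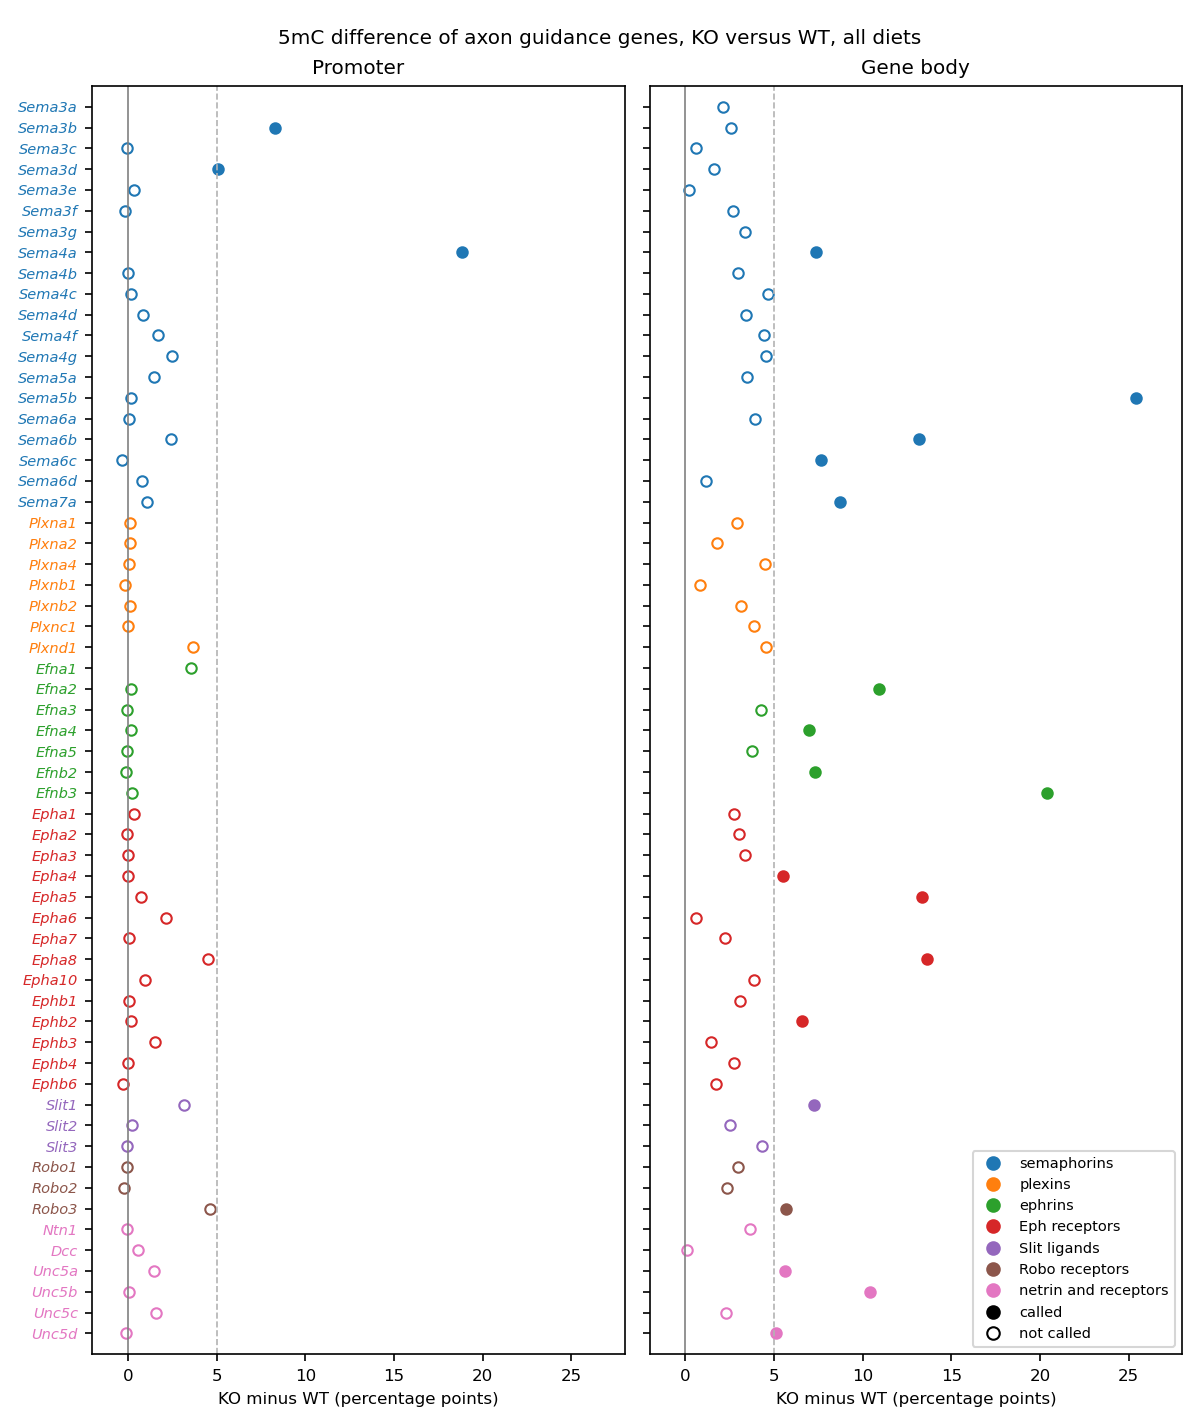
KO minus WT difference in 5mC (x axis, percentage points, all diets) of the promoter (left) and gene body (right) of each axon guidance gene (y axis, coloured by family). Filled circles are called, open circles are not, and the dashed line is the minimum of 5 points; 18 gene bodies and 3 promoters are filled, and Sema5b lies farthest right at 25.4 points.

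Among the ligands, the largest single differences were those of semaphorins, Sema4a in promoters and Sema5b in gene bodies. The ephrins had a higher family median in gene bodies, at 7.12 points. Semaphorins are cues that mostly repel axons, and classes 4 to 6 are bound to the membrane. 5 of 20 semaphorin gene bodies were called, with a family median of 3.45 points, near the 25.1% and the 2.79 points of all gene bodies. The gene body of Sema5b lay at 38.45, 41.16 and 53.41% (lowest, median, highest) in WT, at 43.5, 45.1 and 48.4% in HET and at 41.5, 70.2 and 75.4% in KO embryos. 15 of 16 KO embryos were above every WT embryo, and the one below, from 30 ppm, was labelled KO replicate 1 and went against its label. The mean rose from 43.2 ± 4.89% in WT to 68.7 ± 7.79% in KO embryos (SD), a difference of 25.4 points (adjusted p = 2.98e-08, quasi-binomial test). Sema6b, a membrane-bound semaphorin, rose from 34.52 ± 2.04% to 47.5 ± 4.35%, a difference of 13.2 points (adjusted p = 1.22e-08). Sema6c rose by 7.66 points, from a low level of 15.3, 16.8 and 18.5% in WT to 18.9, 25.2 and 27.2% in KO embryos. Its gene body was the only one of the 59 in which every KO embryo lay above every WT embryo with all libraries in, beside 1.41% of all gene bodies, and without the 3 libraries 15 gene bodies separated in this way, beside 17.3%. Sema7a, which is anchored by a lipid, and Sema4a were called too, at 8.73 and 7.34 points. No class 3 semaphorin, the secreted type, was called in its gene body: the differences of Sema3c and Sema3e were 0.62 and 0.23 points, and that of Sema3a, the best known repellent of the class, was 2.14 points at a WT level of 80.1%.

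The 3 called promoters were all of semaphorins. The Sema4a promoter, with 5 measured CpGs, lay at 56.2, 63.5 and 78.9% in WT, 62.6, 70.2 and 81.7% in HET and 73.2, 85.2 and 93.3% in KO embryos. The groups overlapped with all libraries in. Without the 3 libraries, WT embryos reached 64.7% at most and KO embryos 75.6% at least, where 11.7% of all promoters also parted in this way. The difference was 18.8 points (adjusted p = 3.04e-06), and 24.0 points without the 3 libraries. The Sema3b promoter lay at 29.4, 33.9 and 47.2% in WT and at 23.8, 47.1 and 50.9% in KO embryos, so that the groups overlapped over most of their range. Its difference was 8.30 points (adjusted p = 0.00463). It was 13.3 points without the 3 libraries, and the call ended with litter as a block (7.65 points, adjusted p = 0.0744). This promoter pooled 7 CpGs near any of 10 annotated starts. Tiles near such starts, 3.73 and 4.73 kb from the 5′ end of the gene, lay at 13.6 and 72.1% in WT embryos. They differed by 8.60 and 8.14 points with all libraries in and were not called. Without the 3 libraries they were called, at 11.6 and 10.1 points. The promoter of Sema3d, another secreted semaphorin, was near 0 in WT embryos at 0.38, 1.00 and 1.63%, and it ranged from 0 to 15.05% with a median of 4.88% in KO embryos. The difference of 5.05 points (adjusted p = 2.81e-05) stands just inside the minimum of 5 points.

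Of the ephrins, the membrane-bound partners of the Eph receptors, 4 of 6 measured gene bodies were called, with a family median of 7.12 points, beside the same 25.1% and 2.79 points over all genes. Efnb3, a midline barrier for corticospinal axons, lay at 22.1, 29.8 and 40.8% in WT, 29.87, 35.37 and 40.21% in HET and 29.8, 53.1 and 63.6% in KO embryos. Its mean rose from 31.6 ± 6.10% to 52.3 ± 7.75%, by 20.4 points (adjusted p = 1.56e-07). The promoter of Efnb3 differed by 0.26 points at 0.68% in WT embryos. Efna2 rose from 51.4 ± 2.67% to 62.3 ± 4.25%, by 10.9 points (adjusted p = 6.53e-07), Efnb2 by 7.29 points and Efna4 by 6.95 points. The latter had 3 measured CpGs and an adjusted p of 0.0455, which became 0.0805 with litter as a block and 0.0501 with sex as a covariate, and its difference was 11.1 points in embryos of normal phenotype. That of Efnb2 was 14.1 points with promoters of 2.5 kb. Efna3 had the lowest gene body level of all members, 5.39%, and stood 4.25 points higher in KO embryos, under the minimum of 5 points (adjusted p = 4.94e-08 in the quasi-binomial test).

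Among the secreted ligands of commissural axons, Slit1 was called in its gene body, and Slit2, Slit3 and Ntn1 were not. Of all gene bodies, 25.1% were called. Netrin-1 attracts commissural axons towards the midline, and Slit proteins repel those that have crossed it. Slit1 lay at 50.01, 54.68 and 60.45% in WT and at 54.0, 62.4 and 66.8% in KO embryos, a difference of 7.24 points (adjusted p = 3.88e-05). Slit3 and Ntn1 differed by 4.32 and 3.65 points at WT means of 68.1 and 38.69%, each past the adjusted p and short of 5 points. Slit2 was 12.7 ± 0.76% in KO and 10.2 ± 2.22% in WT embryos over 59 CpGs. Promoters of Slit2, Slit3 and Ntn1 held under 1% in both genotypes. The Slit1 promoter, in contrast, lay at 1.38, 1.97 and 3.22% in WT and 1.55, 5.41 and 6.58% in KO embryos, a difference of 3.15 points below the minimum.

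Eph receptors, the tyrosine kinases that bind ephrins, had 4 of 14 gene bodies called, near the 25.1% of all gene bodies, and none of 14 promoters, beside 9.05% of all. The gene body of Epha8 lay at 63.0, 67.5 and 73.3% in WT, 69.4, 73.7 and 75.9% in HET and 68.8, 81.7 and 84.3% in KO embryos, with a mean difference of 13.6 points (adjusted p = 1.58e-08). Epha5 rose from 45.9 ± 8.16% to 59.7 ± 6.04%, by 13.3 points (adjusted p = 0.000678), over 11 CpGs. 5 of these lie in 1 tile close to the promoter, and over the other 6 CpGs KO embryos stood 1.87 points lower, at 83.8% against 85.5%. At a coverage of 10 reads the difference in Epha5 was 23.5 points. Ephb2 rose by 6.55 points over 157 CpGs, and Epha4, the receptor through which ephrin-B3 acts at the midline, by 5.52 points, from 59.9, 67.6 and 69.0% to 65.9, 70.9 and 77.2% (adjusted p = 0.00616). The call on Epha4 ended when only embryos of normal phenotype were compared (5.13 points, adjusted p = 0.0722), with promoters of 2.5 kb (4.36 points) and with limma (3.92 points). The receptors Epha6 and Ephb3 differed by 0.58 and 1.44 points.

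Of the 15 receptors of the other ligands, 4 were called in their gene bodies, again near the 25.1% of all gene bodies. No plexin was called in its promoter or gene body, and the differences of the 7 plexin gene bodies ran from 0.86 points in Plxnb1 to 4.57 points in Plxnd1. Of the Robo receptors, only Robo3, which lowers the response to Slit before midline crossing, was called, at 5.67 points over a WT mean of 17.3%, and Robo1 and Robo2 differed by 2.97 and 2.38 points. The netrin receptors parted: Unc5b rose by 10.4 points, Unc5a by 5.60 points and Unc5d by 5.09 points, while Unc5c differed by 2.29 points over 5 CpGs, and Dcc, the receptor for attraction, by 0.08 points at 82.8% in WT embryos. The calls on Unc5a and Unc5d ended with limma (4.93 and 3.91 points), that on Unc5a also at a coverage of 10 reads (4.84 points), and that on Unc5d also with litter as a block (4.58 points) and with promoters of 2.5 kb (3.09 points). The Robo3 call ended at a coverage of 10 reads (2.60 points, adjusted p = 0.0880) and in embryos of normal phenotype (4.79 points). Unc5b lies 1.97 Mb (Mb, 1e6 bases) from Tet1 on chromosome 10. Of 48 gene bodies within 3 Mb of Tet1, 22 (45.83%) were called higher, against 25.002% of those elsewhere, and loss of TET1 and inherited sequence around the targeted allele cannot be told apart there. The other members on that chromosome, Efna2 and Plxnc1, lie 17.3 and 31.9 Mb away.

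**Figure D2:**
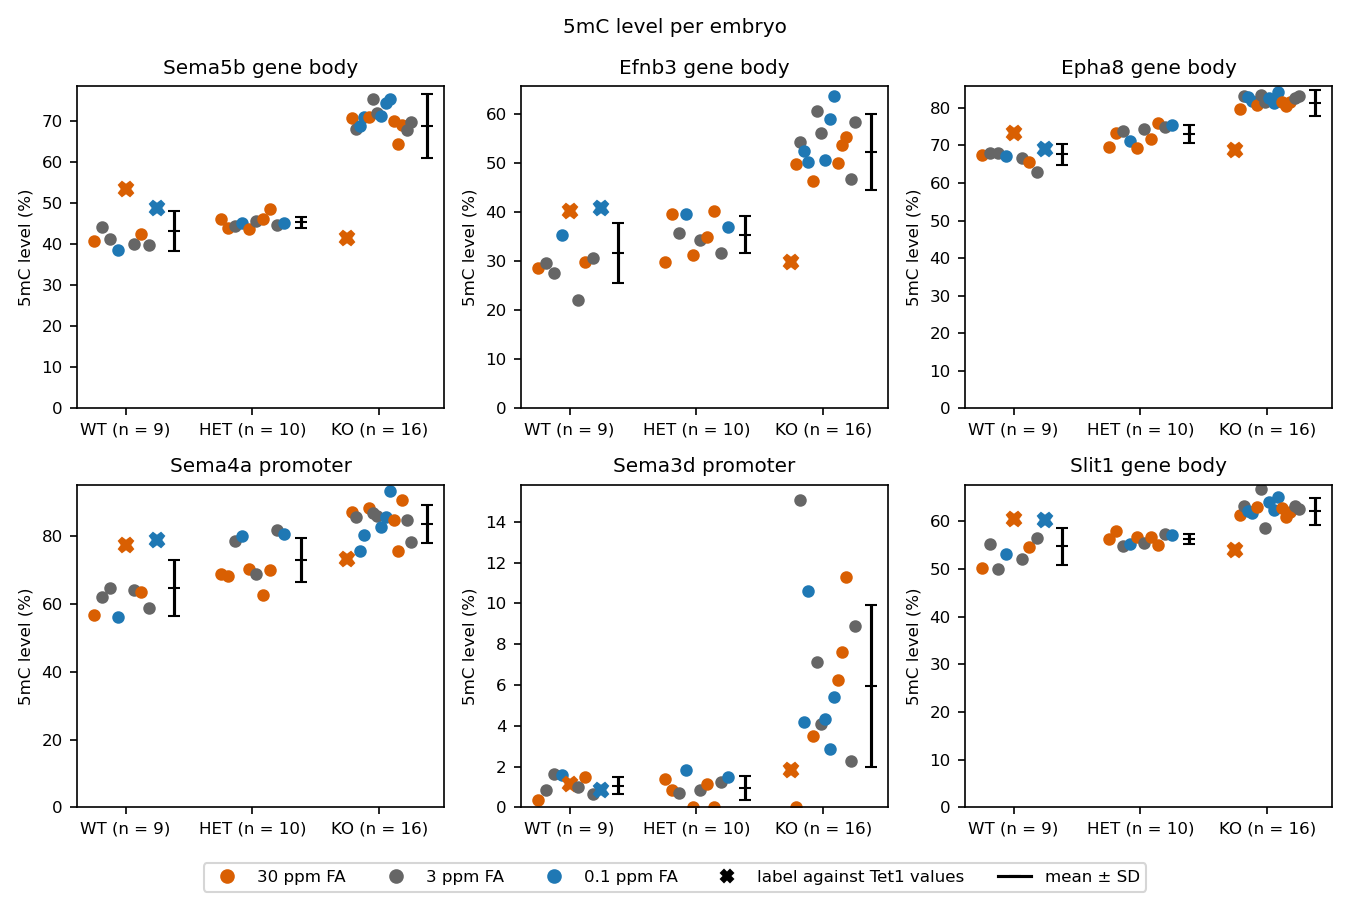
5mC level (y axis, percent) of 6 regions in each of 9 WT, 10 HET and 16 KO embryos (x axis), coloured by diet, with the mean and SD beside each group. Crosses are the 3 libraries that went against their labels; in the Sema5b gene body the KO cross lies at 41.5%, and all other KO embryos lie at 64.2% or above.

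Receptor promoters stayed low. The largest differences among them were 4.62 points in Robo3, 4.50 points in Epha8 and 3.69 points in Plxnd1, just outside the minimum of 5 points. The Plxnd1 promoter, for the receptor of Sema3e, lay at 1.38, 1.60 and 4.05% in WT and 2.83, 5.90 and 7.65% in KO embryos over 115 CpGs, and that of Epha8 at 1.24, 2.18 and 4.95% and at 3.31, 7.44 and 10.7%. Robo3 lay at 4.09, 5.85 and 7.02% in WT and at 6.79, 10.5 and 14.3% in KO embryos. With all libraries in, no promoter had every KO embryo above every WT embryo (0.938% of all promoters did). Without the 3 libraries 9 promoters did (11.7%), among them Plxnd1, Epha8, Slit1 and Efna1. The smallest difference of each family was found in Epha3, Plxnc1, Sema4b, Slit3, Efna3, Ntn1 and Robo1, with promoter levels between 0.566 and 0.736% in WT and between 0.551 and 0.749% in KO embryos.

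The largest gain of a tile was in the tile chr16:35660001-35661000 of Sema5b, an exon tile with 47 measured CpGs 119 kb from the 5′ end of the gene. WT embryos lay there at 9.24, 16.03 and 29.85%, HET embryos at 14.4, 17.8 and 23.2% and KO embryos at 16.9, 62.4 and 73.1%. The lowest KO embryo was again the library that went against its label, and the other 15 lay at 56.2% or above. The difference was 44.5 points (adjusted p = 1.24e-10), and the preceding tile differed by 39.0 points. Over the 44 CpGs of the Sema5b gene body outside its 4 called tiles, levels were 70.1% in WT and 72.8% in KO embryos, a difference of 2.69 points. Called tiles were chosen for their difference, so that a smaller one outside them is built in, and such values are a description. 2 adjoining intron tiles of Epha8 differed by 37.8 and 37.6 points, and over its 28 CpGs outside called tiles the difference was 4.14 points. In Slit1 and Unc5b, differences of 5.79 and 7.69 points remained outside the called tiles, which held 18 of 113 and 26 of 87 CpGs.

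**Figure D3:**
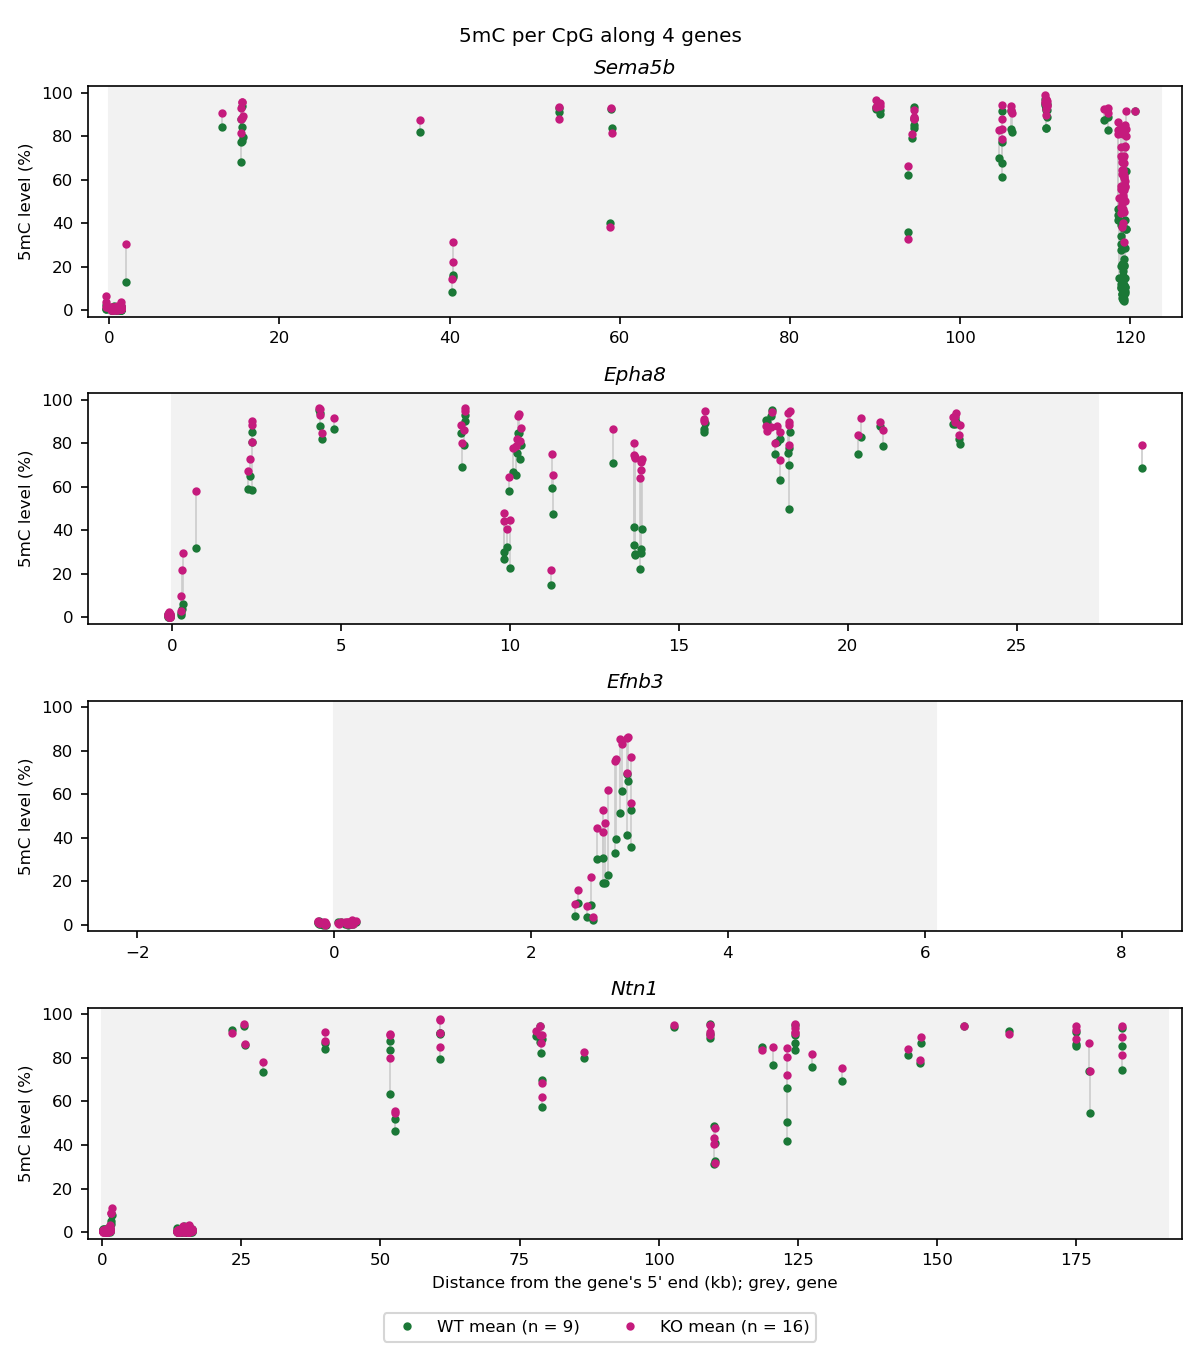
Mean 5mC level per CpG (y axis, percent) in 9 WT (green) and 16 KO (magenta) embryos along 4 genes, against the distance from the 5′ end of the gene (x axis, kb, each panel on its own scale, gene in grey). Grey lines join the means of the same CpG, which part most about 119 kb into Sema5b. Both means stay near 0 at the starts of Sema5b, Efnb3 and Ntn1. In Epha8 they have already reached 5.99% in WT and 29.7% in KO embryos at 0.32 kb.

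Ntn1, Slit3, Sema4g and Efna1 gained in a tile without a call in the promoter or gene body, where the gene body of Efna1 was not measured. So did Ephb1, Sema4d, Sema4f, Efna3, Unc5c and the plexins Plxna4, Plxnc1 and Plxnd1. Ntn1 had 1 called tile of 10 tested, an exon tile of 3 CpGs with 40.7, 55.5 and 64.9% in WT and 60.3, 81.0 and 91.7% in KO embryos, a difference of 25.9 points (adjusted p = 6.14e-06). A Slit3 intron tile differed by 19.2 points (adjusted p = 0.000361). A tile 0.6 kb upstream of Sema4g lay at 16.7, 25.6 and 44.4% in WT and at 40.0, 54.6 and 65.7% in KO embryos, and differed by 23.8 points. In Robo3, 4 CpGs near another annotated start gained 22.5 points, from 19.8, 27.4 and 31.5% to 33.3, 47.7 and 62.7%, with no overlap between the groups. A Slit1 exon tile gained 24.8 points, a Sema4a promoter tile 23.1 points, an Efna1 tile near another start of that gene 20.1 points, and the tile with the whole Efnb3 gene body 20.4 points. With all libraries in, 6 of 294 tiles had every KO embryo above every WT embryo (1.27% of all tiles), and 51 had without the 3 libraries (11.8%). 13 of the 49 genes with at least 2 tested tiles had 2 or more called, beside 15.2% of all such genes, at a median of 4 tested tiles against 3, led by Epha8 with 6 of 12 tested and Ephb2 with 6 of 20. By position, 9 of 29 tested tiles in promoters were called (31.0%, beside 26.3% over all genes), 21 of 114 with an exon (18.4%, beside 14.0%), 27 of 149 in introns (18.1%, beside 11.9%) and 1 of 2 in a flank (beside 19.99%). A tile was tested only if it varied by an SD of at least 2 points over the WT and KO embryos. Promoter tiles near 0 in all embryos were thus left out, while those near 0 only in WT could enter, as in Sema3d at 1.07%. Tested tiles were chosen in part by their KO values, and these shares are a description.

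The share of members called varied with the level that a region had in WT embryos. Of gene bodies at 20 to 50% in WT, 6 of 12 members were called, beside 51.3% of all gene bodies in that class, and at 50 to 80% 9 of 16, beside 56.8%. Of those at 80% and above only 1 of 25 was called, beside 8.10%. Tiles at 20 to 50% were called in 21 of 33 members' tiles, beside 62.1% of all, and at 80% and above in 0 of 154, beside 0.239%. In the class below 5% 1 of 52 member promoters was called, beside 2.75%. The classes use the same WT embryos as the differences, so these shares are a description, and the members' shares stood near those of all regions.

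**Figure D4:**
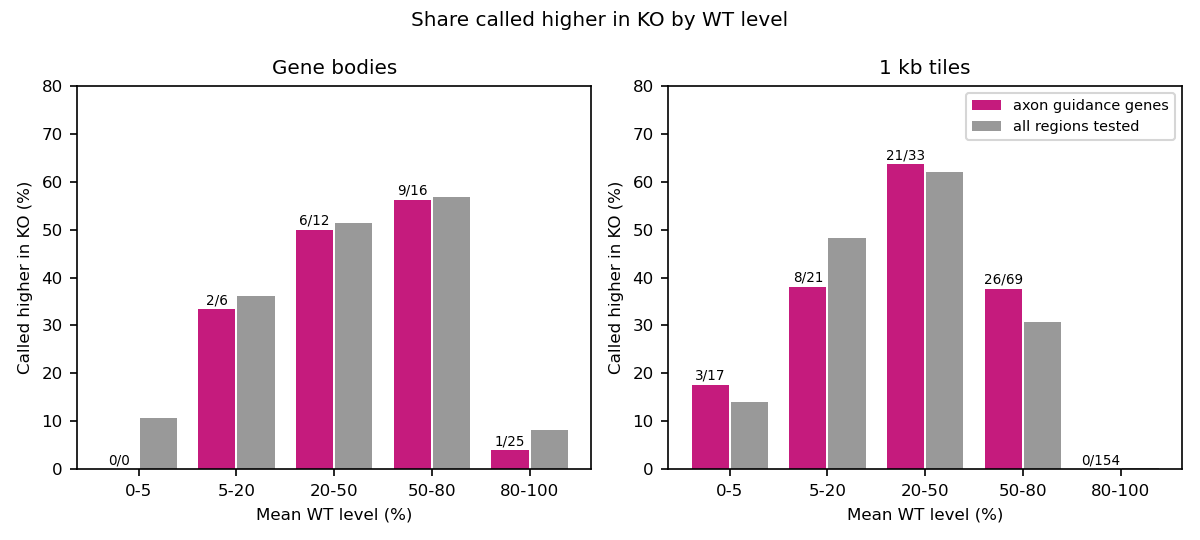
Share of gene bodies (left) and tiles (right) called higher in KO embryos (y axis, percent) by the mean WT level (x axis, percent), for axon guidance genes (magenta, with counts called and tested) and all regions tested (grey). In the class of 20 to 50%, 6 of 12 gene bodies and 21 of 33 tiles of the members were called, and 0/0 marks a class with no member.

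The level of HET embryos was also examined in the regions called in KO embryos. These regions were chosen with the same WT embryos, which by itself favours a HET level above WT, so the counts are a description. The HET mean lay between the means of WT and KO embryos in 17 of 18 called gene bodies (95.4% of all called gene bodies), in 56 of 58 called tiles (93.4%) and in 1 of 3 called promoters (87.9%). The shift itself was small, with a median of 2.54 points over the 18 gene bodies beside 7.50 points in KO embryos. Against WT embryos, 1 gene body was called, that of Epha8 at 5.38 points (adjusted p = 0.0489, 0.347% of all gene bodies called), 1 tile (0.305% of all tiles) and no promoter (0.0587% of all promoters). The Epha8 call ended with litter as a block (4.56 points), with limma (4.60 points), at a coverage of 10 reads (5.24 points, adjusted p = 0.0625) and with promoters of 2.5 kb (5.25 points, adjusted p = 0.0685). The tile was the Epha8 intron tile above, with HET levels of 36.67, 44.94 and 52.38%, a difference of 13.1 points (adjusted p = 0.0116). 5 promoters, 14 gene bodies and 41 tiles of the members had an unadjusted p under 0.05 (7.13, 16.4 and 13.7% of all), and limma called no promoter, no gene body and 1 tile. Without the 3 libraries the Sema4a promoter (13.5 points), the gene bodies of Epha8, Sema7a and Efnb3 (6.66, 5.06 and 5.65 points) and 9 tiles were called, where 0.755% of all promoters, 4.15% of all gene bodies and 1.81% of all tiles were. Within a diet, HET embryos differed from WT embryos in 2 neighbouring Epha8 tiles on 3 ppm, by 16.9 and 15.6 points, beside 1.08% of all tiles called, and in no promoter or gene body (0.139 and 0.178% of all). That count was 0 without HET replicate 2 or HET replicate 3, and 5 without WT replicate 1, and with gene bodies it went from 0 to 2 without WT replicate 1 and to 1 without WT replicate 4. On 30 and 0.1 ppm no member was called for HET embryos (0 and 0.0697% of all tiles), 4 and 2 tiles were without the library labelled WT replicate 2 of each diet (1.13 and 0.948% of all tiles), and 1 gene body was without WT replicate 1 of 0.1 ppm. Each such comparison on 0.1 ppm has 1 WT embryo, which is assumed to vary like the embryos of the other group. Some HET counts here, from limma or without 1 library, stand without the share of all regions. They are a description and show nothing particular to the members.

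Gains in KO embryos were called on each diet. On 3 ppm 4 promoters, 18 gene bodies and 69 tiles were called (9.13, 27.5 and 17.6% of all), on 0.1 ppm 1, 16 and 40 (7.19, 18.9 and 12.9%), and on 30 ppm 0, 4 and 21 (2.11, 3.34 and 6.58%). The gene bodies of Unc5b, Sema6c and Efna2 were called on each diet (2.75% of all gene bodies were), and 13 were called on both 3 and 0.1 ppm (14.5%). The 4 called on 30 ppm were Efnb2 (8.98 points), Efna2 (8.89 points), Unc5b (7.86 points) and Sema6c (7.24 points). The Sema5b gene body differed by 18.9 points on 30 ppm (adjusted p = 0.0765), where 2 libraries went against their labels, by 29.2 points on 3 ppm and by 28.5 points on 0.1 ppm. Its values on 3 ppm lay from 39.9 to 44.2% in WT and from 67.8 to 75.4% in KO embryos. Efnb3 differed by 27.7 points on 3 ppm and by 17.1 points on 0.1 ppm, and it was not called on 30 ppm. The Epha8 promoter, at 5.83 points, was the only one called on 0.1 ppm, and on 3 ppm the Robo3 promoter was called at 5.82 points besides those of Sema4a, Sema3b and Sema3d.

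On 30 ppm no gene body of the members was called with litter as a block, with limma or with promoters of 2.5 kb. This stands without the share of all gene bodies and shows nothing particular to the members. The count on 30 ppm rested on single libraries. It rose to 15 gene bodies and 49 tiles without the library labelled KO replicate 1 (17.0 and 13.2% of all), to 14 and 42 without that labelled WT replicate 2 (14.7 and 10.3%), and to 29 and 65 without both (26.7 and 17.2% of all). It rose to 1 and 2 promoters without the former and the latter (6.26 and 5.65%). Leaving out any other 1 library of 30 ppm left no called gene body among the members or in the genome. The count of tiles then was 0 without WT replicate 1 (0.0166%), and 9 to 11 without KO replicates 2 to 5 or WT replicate 3 (3.22 to 3.87%). On 0.1 ppm 10 gene bodies and 19 tiles were called without WT replicate 1 (8.43 and 6.22% of all), and 2 promoters without WT replicate 2, KO replicate 1 or KO replicate 5 (6.58 to 6.97%). Leaving out either WT library there sets the KO embryos against 1 WT embryo with the spread taken from the KO embryos, and without WT replicate 1 that embryo is the one that went against its label.

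**Figure D5:**
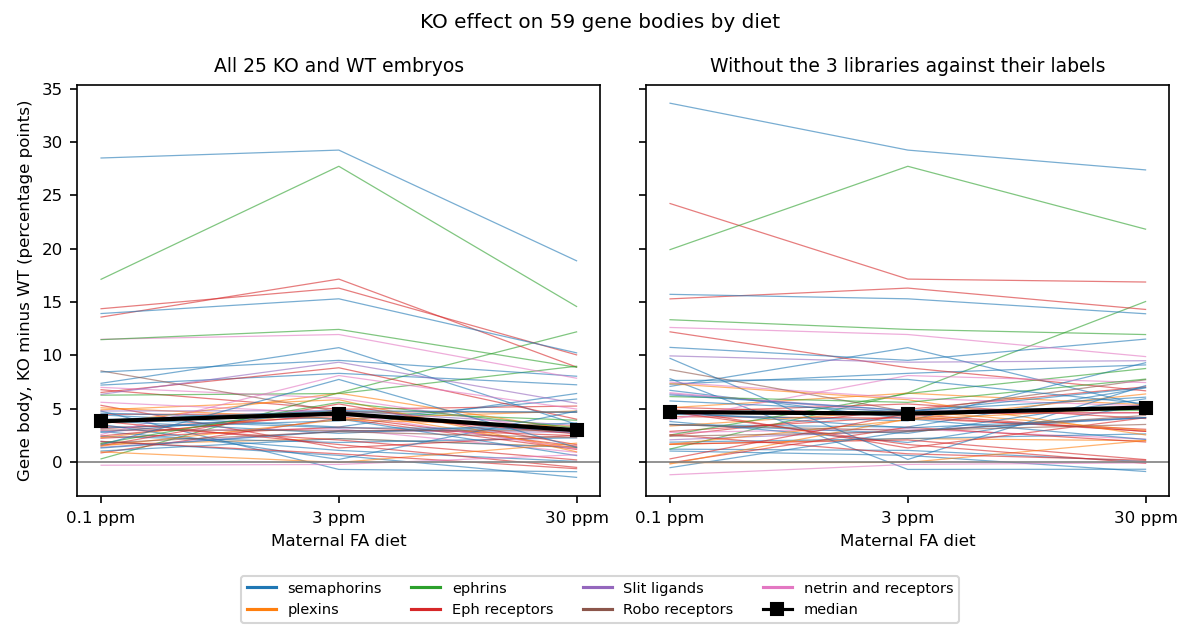
KO minus WT difference of the 59 gene bodies (y axis, percentage points) on 0.1, 3 and 30 ppm FA (x axis), each line a gene coloured by family and black squares the median, with all libraries (left) and without the 3 that went against their labels (right). The median on 30 ppm is 2.99 points on the left and 5.12 points on the right.

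An interaction term tested whether the KO effect differed between diets. None of the member promoters, gene bodies and tiles was called for 30 against 3 ppm or 0.1 against 3 ppm, in the quasi-binomial test. For 30 against 3 ppm, 5 promoters, 4 gene bodies and 26 tiles of the members had an unadjusted p under 0.05 (5.96, 5.46 and 6.81% of all), and for 0.1 against 3 ppm 1, 1 and 14 (4.46, 4.11 and 5% of all). The members' median KO effect in gene bodies was 2.99 points on 30 ppm, 4.54 on 3 ppm and 3.83 on 0.1 ppm, and without the 3 libraries 5.12, 4.54 and 4.68 points, so that the order of the diets changed with these libraries. Diets were also compared within each genotype, and no member region was called in any of these 6 comparisons. Each litter was on 1 diet, so effects of diet and of litter cannot be told apart here. Litter was not a block in the diet and interaction tests. Of all tiles, 0.304% were called for 0.1 against 3 ppm in WT embryos, and 0.0908% for 0.1 and 0.0469% for 30 against 3 ppm in HET embryos, with 0.00847% of all gene bodies for 0.1 ppm in HET embryos and no other region. In the gene bodies, unadjusted p-values under 0.05 numbered 1 to 8 (1.79 to 8.46% of all gene bodies), and in the tiles 9 to 21 (4.57 to 6.87% of all tiles). Without WT replicate 2 of 0.1 ppm, which leaves 1 WT embryo against the 4 on 3 ppm and takes the spread from the latter, 3 tiles were called lower on 0.1 ppm (0.626% of all tiles). The autosomal regions in the authors' own lists for this comparison, made with another tool, overlapped 16 of the 60 members for gains and 21 for losses, counted with 2 kb to each side, beside 6.89 and 8.75% of all genes, and 1 of the 2 WT embryos on 0.1 ppm went against its label. The deposited list of gains for 0.1 ppm holds a number of regions other than that printed in the study. Their list of gains on 30 against 3 ppm in WT embryos overlapped 4 members, beside 2.33%. Long genes have more room for such overlaps, and the members had a median length of 62.8 kb against 17.6 kb over all genes.

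44 further genes of the pathway were examined beside the members, among them the neuropilins, neogenin, other netrins and intracellular partners such as the Dpysl and Srgap families. 18 of their 41 measured gene bodies were called higher in KO embryos over all diets, with a median difference of 4.84 points, 1 of 43 promoters and 34 of 194 tiles, and none was called lower. The shares of all regions called were 25.1% for gene bodies, 9.05% for promoters and 14.3% for tiles. The authors' own lists of autosomal regions that gained methylation in KO embryos overlapped 43 of the 60 members on 3 ppm, 35 on 30 ppm and 28 on 0.1 ppm, counted with 2 kb to each side, beside 36.5, 23.7 and 19.7% of all genes. Their list of gains in HET embryos on 3 ppm overlapped 29 members, beside 14.7%, and that of losses 3 members (Ephb2, Robo1 and Sema6c), beside 1.37%. The members are long genes, with a median of 62.8 kb against 17.6 kb over all genes, and a longer gene has more room for such an overlap.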

How the data were processed

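True 5mC was measured by oxidative bisulfite RRBS in 36 single E11.5 mouse brains. Per the labels and the study's methods, the authors trimmed paired reads with Trim Galore 0.6.10, aligned them to mm10 with Bismark 0.24.1, used UMI-tools to remove duplicates that shared a molecular identifier, and extracted methylation calls with Bismark. Each deposited table gives, per CpG with both strands on 1 line, the count of reads and the fraction of them that was methylated, as the authors made them. How the strands were joined is not given in the sources used here. Fraction times count was whole, so both read counts were recovered. Deposited positions count from 0, since all 3493603 CpGs then fell on a CG of GRCm38.p6, and positions here count from 1. The authors' deposited lists of differential regions, made with methylKit 1.26.0, were used as positions only.

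Groups follow the labels. HET replicate 2 of 0.1 ppm was left out. Autosomal CpGs covered by at least 5 reads in all 35 embryos were pooled per region of GENCODE M21, with at least 3 CpGs. A quasi-binomial logistic model was fitted to the methylated and unmethylated reads, with the dispersion moderated across all regions and held at 1 or above, and a two-sided F test. P-values were adjusted by Benjamini-Hochberg over all regions of a kind in the genome. Tiles needed an SD of at least 2 points over the embryos compared. The pooled fits had diet as a covariate, the others only the groups compared. Genes in full are the largest called promoters, gene bodies and tiles, the smallest promoter difference per family, and 12 fixed cue and receptor genes. The members, lists and rules were chosen with earlier results of these data known. Reads of littermates are not independent of the litter, so litter as a block was an alternative in the genotype comparisons. Other alternatives were limma 3.58.1 on CpG means, other coverage and size minimums, another promoter width, sex, phenotype and left-out libraries. None of 59 pairs of libraries of a group matched within sampling noise (chi-square per region 1.70 to 7.57). The number of reads per region and embryo was 30 or more in promoters and 15 or more in tiles, and SDs include counting error. Of 60 members, 50 were in the RefSeq promoter table. Scripts ran in Python 3.11.15 and R 4.3.3, and were tested on simulated data.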

Additional observations from a re-analysis of the deposited data

Results flagged for a closer look

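In 38 groups of 4 to 10 embryos, the highest or the lowest embryo was set against the others of its genotype, and 2 stood apart by Dixon's ratio, where chance gives 1.9. HET replicate 5 of 30 ppm had 48.4% in the Sema5b gene body, above the other HET embryos, and HET replicate 3 of 30 ppm had 15.5% in the promoter tile of Sema4g, below them.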

How the results depend on the processing

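489 recomputed counts stayed within 1.5 times the reported one and 79 did not. Counts of 0 that stayed 0, as in nearly all diet and interaction refits without 1 library, are among the 489. That number therefore does not measure how stable the other counts are. With the minimum difference doubled, KO embryos of all diets had 1 promoter, 7 gene bodies and 11 tiles called, on 30 ppm 0 gene bodies and 6 tiles, on 3 ppm 2, 8 and 19, on 0.1 ppm 0, 7 and 17, and HET embryos no gene body and no tile. Over all regions and diets, 4.19% of promoters, 7.90% of gene bodies and 3.94% of tiles were then called in KO embryos. A coverage of 10 reads gave 36 tiles in KO embryos of all diets (16.8% of all), 1 promoter and 7 gene bodies on 30 ppm, 2 promoters on 0.1 ppm and no HET gene body. Without the 3 libraries, 30 ppm had 3 promoters, 29 gene bodies and 65 tiles (8.48, 26.7 and 17.2% of all), 0.1 ppm 2 promoters, HET embryos 1, 3 and 9 over all diets, 4 tiles on 30 ppm and 2 on 0.1 ppm, and WT embryos 3 tiles between 0.1 and 3 ppm. A single dispersion gave 1, 12 and 37 on 30 ppm (5.23, 13.8 and 10.3%) and 2 promoters on 0.1 ppm. With litter as a block there were 0 gene bodies on 30 ppm, 2 promoters on 0.1 ppm, and for HET embryos 0 gene bodies and 2 tiles over all diets and 1 tile on 3 ppm. This block could not be fitted for HET against WT on 0.1 ppm. Promoters of 2.5 kb gave 0 gene bodies on 30 ppm, 2 promoters on 3 ppm and 0 HET gene bodies. With limma, 30 ppm had 0 gene bodies and 1 tile, 0.1 ppm 0 promoters and HET embryos 0 gene bodies. The SD filter swapped gave 2 promoters on 0.1 ppm, and embryos of normal phenotype 3 HET tiles. The causes were not tested. Counts in this section without a share of all regions describe the processing and show nothing particular to the members. Leaving out 1 library at a time, KO counts ranged from 0 to 2 promoters, 0 to 15 gene bodies and 0 to 49 tiles on 30 ppm, from 1 to 2, 10 to 22 and 19 to 47 on 0.1 ppm, and HET counts from 0 to 4 tiles on 30 ppm, 0 to 2 gene bodies and 0 to 5 tiles on 3 ppm, and 0 to 1 and 0 to 2 on 0.1 ppm. The tiles of 0.1 against 3 ppm in WT ranged from 0 to 3. The 32 named differences were recomputed under 9 to 11 settings each, and in 301 of 334 recomputations the call stayed, in 32 it was lost and in 1 the sign reversed: the Epha5 gene body fell to -1.87 points with promoters of 2.5 kb, which take up the CpGs near its start. RRBS sampled few of the genes' CpGs, and differences in unmeasured stretches, such as the Sema3a promoter, stay unknown.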
